A study of Mus musculus with 6 samples.

Results

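The genes described here are 38 genes of the ATF4 response and the unfolded protein response, taken by exact symbol from the 26167 genes listed in a study of sorafenib (Sora) in a mouse liver tumor, and all 38 were found. They fall into an ATF4 arm of 18 genes and an endoplasmic reticulum (ER) arm of 20 genes. The tumors were grown from Hepa1-6 cells (Hep1-6 in the sample labels), a mouse hepatoma line, under the skin of female C57BL/6J mice bought at 6 to 8 weeks of age. Tumors 2, 3, and 4 came from mice that received Sora, an inhibitor of several kinases, at 10 mg/kg ip on days 9, 11, 13, and 15, and tumors 1, 3, and 4 of the control group carried the same cells without Sora. What the control mice were injected with is not given in the sources used here, and the line and strain are the same in both groups. RNA of each whole tumor was sequenced as 1 library, so tumor cells and infiltrating cells were read together. The comparison of both groups addresses how gene expression in the tumor changes after Sora treatment.

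When unfolded proteins gather in the ER, the membrane sensors PERK (Eif2ak3), IRE1 (Ern1), and ATF6 (Atf6) start the unfolded protein response. IRE1 splices the Xbp1 messenger, and XBP1 and ATF6 raise ER chaperones and the machinery that removes misfolded proteins. PERK and other kinases of eIF2 also favor translation of the ATF4 messenger, and ATF4 then raises genes of amino acid synthesis, amino acid transport, and the stress factor CHOP (Ddit3). ATF4 is mainly set by translation, ATF6 by cleavage, and XBP1 by splicing, and none of these steps is read by counts of messenger RNA per gene.

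The promoters of these genes are shown first, because both arms carry known DNA elements for those factors. RefSeq promoters on GRCm38.p6 (250 bases before to 50 after the start of transcription) were matched by symbol for 35 of the 38 members, all but Hyou1, Manf, and Atf6. The ER stress element (ERSE), CCAAT and CCACG with 9 bases between them, was searched on both strands. It was found in 8 of the 17 matched members of the ER arm, namely Hspa5, Hsp90b1, Dnajc3, Pdia6, Calr, Canx, Creld2, and Syvn1, and in 0 of the 18 of the ATF4 arm, whereas 0.119% of all 32851 promoters held it. ERSE-II, ATTGG and CCACG with 1 base between them, was found in Herpud1 alone among the members and in 0.0365% of all promoters. TGACGTGA, a form of the core bound by XBP1 and ATF6, was found in Hspa5 (0.441% of all promoters), and the form TGACGTGG in no member (0.676% of all). The core TGATGNAA of elements bound by ATF4 with C/EBP partners was found in 6 members of the ATF4 arm, Trib3, Nupr1, Chac1, Vldlr, Asns, and Pycr1, in Herpud1 of the ER arm, and in 3.97% of all promoters.

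Below are the matches upstream of the start in the 3 members of each arm with the smallest p in the comparison of both groups among those with a match, followed by Hspa5 and Herpud1, which were added as textbook targets after the values were seen. Each runs 5′ to 3′ on the strand of the gene, and capitals mark the match.
Vldlr, chr19:27216805-27216842, plus strand, TGATGNAA on the opposite strand: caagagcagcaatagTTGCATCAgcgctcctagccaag
Pycr1, chr11:120643829-120643866, minus strand, TGATGNAA: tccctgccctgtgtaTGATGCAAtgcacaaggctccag
Chac1, chr2:119351034-119351071, plus strand, TGATGNAA on the opposite strand: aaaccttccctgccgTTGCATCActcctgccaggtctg
Dnajc3, chr14:118937812-118937860, plus strand, ERSE: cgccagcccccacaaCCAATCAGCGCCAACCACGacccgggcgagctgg
Calr, chr8:84847060-84847108, minus strand, ERSE on the opposite strand: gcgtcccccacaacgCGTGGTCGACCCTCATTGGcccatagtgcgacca
Syvn1, chr19:6046517-6046565, plus strand, ERSE: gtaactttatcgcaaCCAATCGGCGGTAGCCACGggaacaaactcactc
Hspa5, chr2:34772010-34772058, plus strand, ERSE: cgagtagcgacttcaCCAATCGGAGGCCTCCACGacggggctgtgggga
Hspa5, chr2:34771918-34771955, plus strand, TGACGTGA: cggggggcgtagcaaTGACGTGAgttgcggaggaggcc
Herpud1, chr8:94386362-94386402, plus strand, ERSE-II: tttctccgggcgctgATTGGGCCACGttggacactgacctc
Herpud1, chr8:94386302-94386339, plus strand, TGATGNAA on the opposite strand: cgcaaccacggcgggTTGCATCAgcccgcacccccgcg

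Ddit3 is shown because it was the only member that passed the edgeR test below. Its promoter, searched from 250 bases before the start, held none of these motifs in full. Bases further upstream were not searched, so whether Ddit3 has one of these motifs there was not tested. The Ddit3 gene lies at chr10:127290793-127296291 on the plus strand of GRCm38.p6. In a search added after the values were seen, a window with at least 9 of the 10 fixed bases of the ERSE was found in 1 member of the ATF4 arm, which was Ddit3, in 11 members of the ER arm, and in 1.5% of all promoters. In Ddit3 this window lies 91 to 73 bases before the start, on the opposite strand, and is in capitals in the 250 bases before the start.
Ddit3, chr10:127290543-127290792, plus strand: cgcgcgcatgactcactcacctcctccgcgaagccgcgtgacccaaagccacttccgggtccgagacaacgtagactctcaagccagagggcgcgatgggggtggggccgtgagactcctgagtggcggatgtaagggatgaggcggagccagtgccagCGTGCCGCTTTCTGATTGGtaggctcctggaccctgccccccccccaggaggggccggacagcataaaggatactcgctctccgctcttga
A match of letters describes the sequence and is not evidence that a factor was bound in these tumors.

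Libraries held 31073830 to 36205814 reads. Levels are given as CPM, the reads of a gene per 1000000 reads of its tumor after TMM scaling in edgeR. The quasi-likelihood test of edgeR was run on all 16513 genes that had 10 or more reads in 3 or more tumors, with p adjusted over them by Benjamini-Hochberg. All 38 members passed this filter, with at least 49 reads in every tumor, so none passed through one group alone. Deposited counts covered 5 of the 6 tumors, and the reads of Sora tumor 4 were worked back from its FPKM (reads scaled by gene length and library total). Results without this tumor rest on deposited counts only. Leaving it out moved the log2 fold change of 14 of the 38 members by more than 1.5 times, none of them called with all 6 tumors and by at most 0.09 on the log2 scale, and the largest shift was that of Ddit3 (0.21). No label ties a tumor to a batch or says that the tumors came from separate mice. The p-values set the group difference against the spread between these samples, which may not be the spread between mice. All 13 listed markers of hepatoma cells had reads, and their summed level overlapped between the groups (5014 to 6509 CPM in control and 5066 to 5643 CPM in Sora tumors). Within it, Alb and Ttr fell and Apoa1 and Hnf4a rose (adjusted p from 0.0055 to 0.047, edgeR). Without Alb, the most abundant, the sums were 2362 to 2999 CPM in control and 2780 to 3515 CPM in Sora tumors, also with overlap. Of the 12 hepatoma markers tested, 7 were higher and 5 lower in Sora tumors. T cell markers (7 genes, each lower in Sora tumors on average) summed to 202 to 221 CPM in control and 164 to 176 CPM in Sora tumors, macrophage markers (7 genes, likewise each lower) to 1721 to 2083 and 1450 to 1699 CPM, fibroblast markers (5 of 6 lower) to 7473 to 7733 and 5260 to 6623 CPM, and plasma cell markers (6 of 9 genes matched, 3 of 5 tested higher) to 288 to 352 and 382 to 414 CPM. Sdc1 set the last of these apart, at 163 to 197 CPM in control and 209 to 257 CPM in Sora tumors, and the other 5 plasma cell markers summed to overlapping ranges of 120 to 155 and 139 to 173 CPM. No marker of these 4 lists was called, and none was at 0. Endothelial sums overlapped between the groups (4 of 6 markers lower), as did those of muscle (6 of 6 higher), keratinocytes (6 of 6 higher), and adipocytes (4 of 4 tested higher). The neutrophil sum overlapped through Mmp9 alone, and the other 5 neutrophil markers, all higher on average, summed to 66.6 to 77.6 CPM in control and 98.9 to 153 CPM in Sora tumors without overlap. Of the markers of these 5 lists, S100a9 of the neutrophils was the only one that passed the test. The part of cell content in the results below was not tested, and in bulk tumors fewer cells of a type and less RNA per cell cannot be told apart.

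Levels per length set the members apart. In FPKM, the ER chaperones Hsp90b1 (GRP94), Calr (calreticulin), and Hspa5 (BiP, the chief Hsp70 chaperone of the ER) were the 3 highest members, with means of 456, 465, and 344 in control tumors and 437, 425, and 338 in Sora tumors. Phgdh, the first enzyme of serine synthesis, ranked next with means of 193 and 261 FPKM and was the highest member of the ATF4 arm, followed in that arm by Atf4 at 102 and 121 FPKM. Ddit3 ranked 21 of 38, at 12.6 and 24.8 FPKM. The lowest member was Chac1, an enzyme that breaks down glutathione, at 0.969 and 1.39 FPKM.

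**Figure D1:**
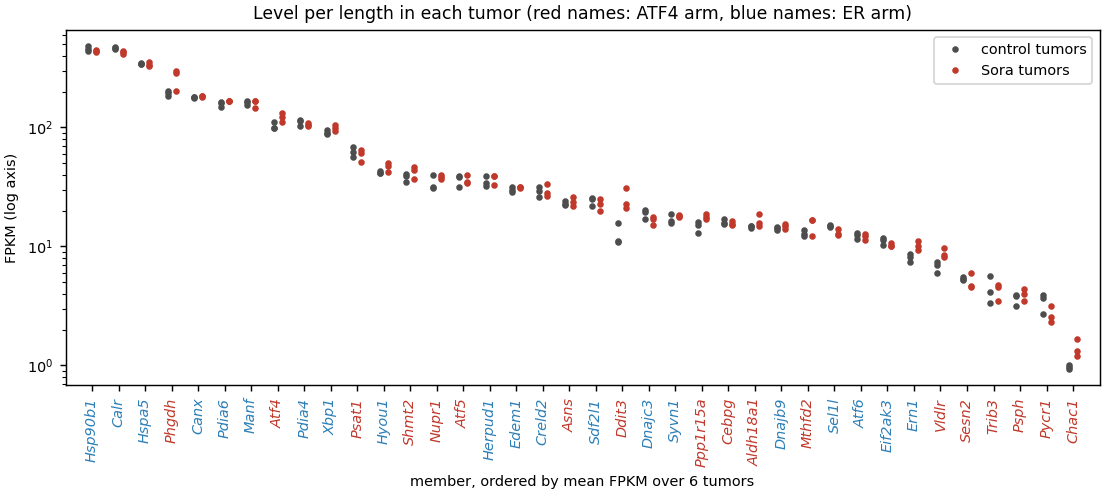
Level of each of the 38 members in FPKM on a log axis, with 1 point per tumor (dark, 3 control tumors; red, 3 Sora tumors), ordered by the mean over the 6 tumors. Hsp90b1, Calr, and Hspa5 (blue names, ER arm) lie highest, and the Sora points of Ddit3 lie above its control points.

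Ddit3, which encodes the transcription factor CHOP, rose in Sora tumors. It measured 27.0, 41.2, and 28.1 CPM in control tumors 1, 3, and 4 and 53.0, 56.9, and 80.5 CPM in Sora tumors 2, 3, and 4. Every Sora tumor lay above every control tumor, control tumor 3 was the highest of its group, and Sora tumor 4 was the highest of all. The means were 32.1 ± 7.91 and 63.5 ± 14.9 CPM (SD, n = 3), a 1.98-fold difference with a 95% interval of 1.5 to 2.61 (log2 fold change 0.98, SE 0.18, adjusted p = 0.021, edgeR), where SE is the standard error. At this threshold 1.94% of the genes tested were higher and 1.34% were lower in Sora tumors, and Ddit3 was the only one of 38 members that edgeR called, with 0 called lower. At an unadjusted p under 0.05 in edgeR, 6 members were higher and 1 was lower (8.53% and 8.69% of all genes). DESeq2, which called 1194 genes in all and 4.0% of genes higher, called 4 members higher (Ddit3, Vldlr, Phgdh, and Ern1) and 0 lower. Without Sora tumor 4 the log2 fold change was 0.78 (adjusted p = 0.10, edgeR), in a fit that called 0.0245% of genes higher, whereas DESeq2 on the same deposited counts, which called 1.65% of genes higher, gave an adjusted p of 0.0011. The call was also lost in edgeR without control tumor 1 (adjusted p = 0.065) and without control tumor 4 (0.081), and the log2 fold change stayed between 0.78 and 1.21 with any 1 tumor left out. Over all alternatives the adjusted p of Ddit3 ran from 2.1e-05 (edgeR with no filter) to 0.18 (limma on log2(FPKM + 1) of all genes). Of the exonic bases of Ddit3 in GENCODE M21, 4.73% are shared with genes on the opposite strand, mainly Mars1, whose log2 fold change was 0.13. The use of strand in counting is not given in the sources used here.

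Atf4, the factor that gives the arm its name, was not called. It measured 167, 195, and 169 CPM in control tumors and 211, 188, and 233 CPM in Sora tumors 2, 3, and 4. Sora tumor 3 lay below control tumor 3, so the groups overlapped. The log2 fold change was 0.25 (SE 0.10, 95% interval 0.04 to 0.46, adjusted p = 0.19, edgeR). Its close relative Atf5, another stress factor controlled at translation, measured 66.0, 68.1, and 54.8 CPM in control and 68.1, 59.6, and 60.7 CPM in Sora tumors. These ranges overlapped, and the log2 fold change was -0.004 (SE 0.10, 95% interval -0.21 to 0.21, adjusted p = 0.99, edgeR).

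**Figure D2:**
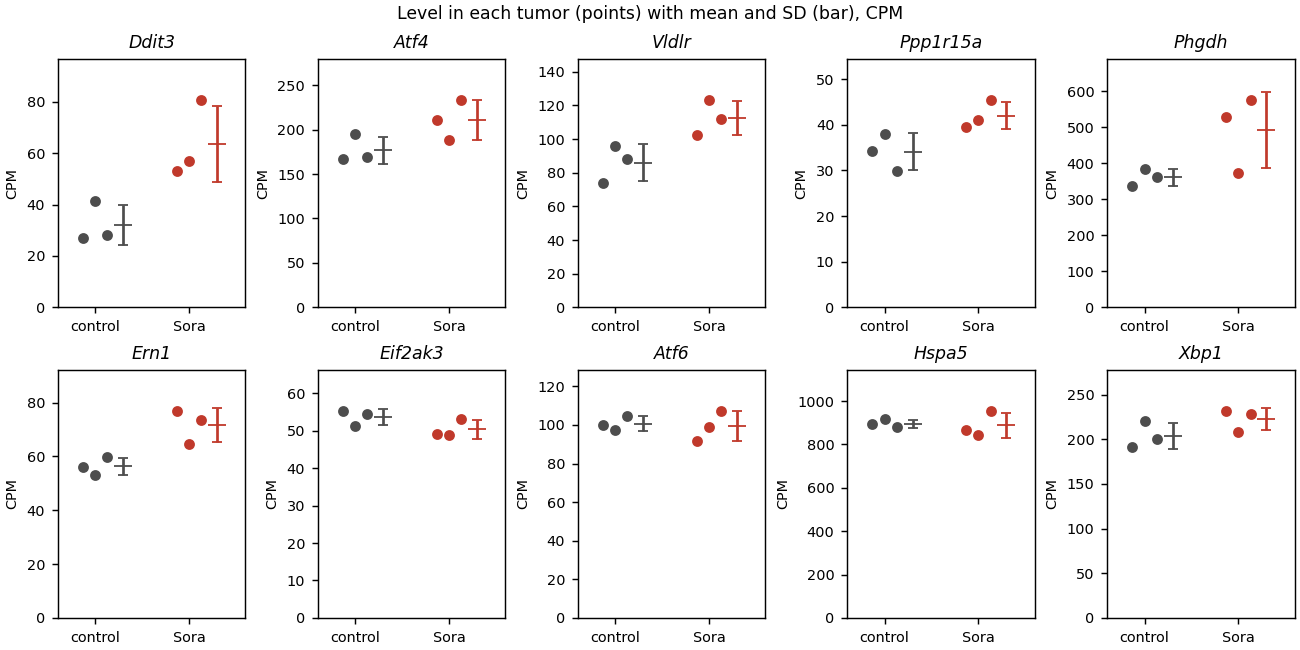
Level of 10 members in each tumor in CPM, with axes from 0 (dark points, 3 control tumors; red points, 3 Sora tumors) and bars for the mean and SD. The groups do not overlap for Ddit3, Vldlr, Ppp1r15a, and Ern1, and they overlap for the other 6 genes.

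Among the other stress factors and effectors of the ATF4 arm, Vldlr and Ppp1r15a had separated groups and did not pass the edgeR test, although DESeq2 called Vldlr (adjusted p = 0.0089). Vldlr, a lipoprotein receptor, measured 74.1, 96.0, and 87.9 CPM in control tumors and 102, 123, and 112 CPM in Sora tumors 2, 3, and 4. All 3 Sora tumors were above all control tumors, with a log2 fold change of 0.39 (SE 0.10, 95% interval 0.16 to 0.61, adjusted p = 0.070, edgeR). Ppp1r15a (GADD34), which helps to remove the phosphate from eIF2, measured 34.3, 37.98, and 29.9 CPM in control tumors and 39.6, 41.0, and 45.3 CPM in Sora tumors. Here too the groups did not overlap, and the log2 fold change was 0.30 (SE 0.10, 95% interval 0.08 to 0.52, adjusted p = 0.14, edgeR). Chac1 was the fourth member of the arm with separated groups, at 1.53, 1.57, and 1.45 CPM in control and 2.05, 1.85, and 2.69 CPM in Sora tumors. With few reads, its log2 fold change of 0.53 had a 95% interval of -0.08 to 1.15.

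The remaining 5 of these 10 genes had overlapping groups. Their log2 fold changes were 0.18 for Nupr1 (a small stress-induced nuclear protein, with 0.32 without control tumor 3 and 0.11 without control tumor 1 or 4), -0.02 for Cebpg (a partner of ATF4), -0.02 for Trib3 (a pseudokinase induced by ATF4 and CHOP), and -0.07 for Sesn2 (a leucine sensor that restrains mTORC1), beside Atf5. Trib3 ranged from 6.80 to 11.8 CPM over the control tumors and from 7.13 to 9.69 CPM over the Sora tumors, and its 95% interval ran from -0.48 to 0.43. Over the 6 members of the arm with the TGATGNAA core, log2 fold changes ran from -0.36 for Pycr1 to 0.53 for Chac1.

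Enzymes of amino acid synthesis formed the other part of the ATF4 arm, and edgeR called 0 of the 8, beside 1.94% of all genes higher and 1.34% lower. At an unadjusted p under 0.05 in edgeR, 1 was higher and 0 were lower (8.53% and 8.69% of all genes). DESeq2, which called 4.0% of genes higher, called Phgdh (adjusted p = 0.0076). Phgdh measured 337, 384, and 361 CPM in control tumors and 528, 374, and 574 CPM in Sora tumors 2, 3, and 4. Sora tumors 2 and 4 lay above the control tumors, and Sora tumor 3 lay among them. The log2 fold change was 0.45 (SE 0.14, 95% interval 0.15 to 0.75, adjusted p = 0.11, edgeR), and without Sora tumor 3 it was 0.61 (adjusted p = 0.0047), whereas it was 0.32 without Sora tumor 4 (adjusted p = 0.39).

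Mthfd2 and Shmt2, mitochondrial enzymes of folate one-carbon metabolism, split the Sora tumors in the same way. Mthfd2 measured 31.6, 30.9, and 28.5 CPM in control and 39.2, 28.7, and 40.7 CPM in Sora tumors, and Shmt2 measured 78.7, 92.8, and 93.2 CPM and 107, 84.7, and 104 CPM. In both, Sora tumors 2 and 4 were above all control tumors and Sora tumor 3 was within their range. The log2 fold changes were 0.25 for Mthfd2 and 0.16 for Shmt2 (adjusted p = 0.33 and 0.48, edgeR), and without Sora tumor 3 that of Mthfd2 was 0.40 (adjusted p = 0.026), whereas it was 0.16 without Sora tumor 4 and 0.19 without Sora tumor 2 (adjusted p = 0.70 and 0.66). That of Shmt2 was 0.25 without Sora tumor 3, 0.08 without control tumor 1, and 0.10 without Sora tumor 2. In the edgeR fit without Sora tumor 3, which called 3.52% of genes higher, 4 members were called higher, namely Ddit3, Phgdh, Mthfd2, and Ern1.

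Psat1 and Psph, which complete serine synthesis after Phgdh, had log2 fold changes of -0.07 (95% interval -0.31 to 0.17) and 0.12 (-0.16 to 0.41). Psat1 measured 136 to 168 CPM in control and 125 to 164 CPM in Sora tumors, so that no Sora tumor lay above the control tumors. Asns, the asparagine synthetase and a standard readout of ATF4, measured 73.5, 78.5, and 81.0 CPM in control and 80.1, 74.1, and 90.9 CPM in Sora tumors. The groups overlapped, with a log2 fold change of 0.07 (95% interval -0.12 to 0.27). Of the proline enzymes, Aldh18a1 was at 0.17 (-0.03 to 0.37, and 0.08 without Sora tumor 2) and Pycr1, at 6.82 to 11.2 CPM over all tumors, at -0.36 (-0.76 to 0.04). Of the 8 enzymes, Sora tumor 2 exceeded all control tumors in 5, Sora tumor 4 in 6, and Sora tumor 3 in 0, and each of them lay below all control tumors in 1. Of all genes tested, 29.5% lay above all control tumors in Sora tumor 2, 29.5% in Sora tumor 4, and 25.2% in Sora tumor 3, and 30.2%, 31.6%, and 25.9% lay below.

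As a whole, 12 of the 18 members of the ATF4 arm had a log2 fold change over 0 and 6 had one under 0, with a median of 0.16 beside -0.0004 for all genes tested. Of all genes tested, 10.6% had every Sora tumor above every control tumor and 11.6% had every Sora tumor below. In the ATF4 arm these counts were 4 and 0 of 18. At an unadjusted p under 0.05, 5 of 18 were higher and 0 lower (8.53% and 8.69% of all genes). The mean of log2(CPM + 1) over the arm came to 5.25, 5.45, and 5.28 for control tumors 1, 3, and 4 and to 5.50, 5.40, and 5.59 in Sora tumors 2, 3, and 4. Control tumor 3, which was also the highest control tumor for Ddit3, Trib3, and Nupr1, lay above Sora tumor 3, so the groups overlapped in this mean.

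**Figure D3:**
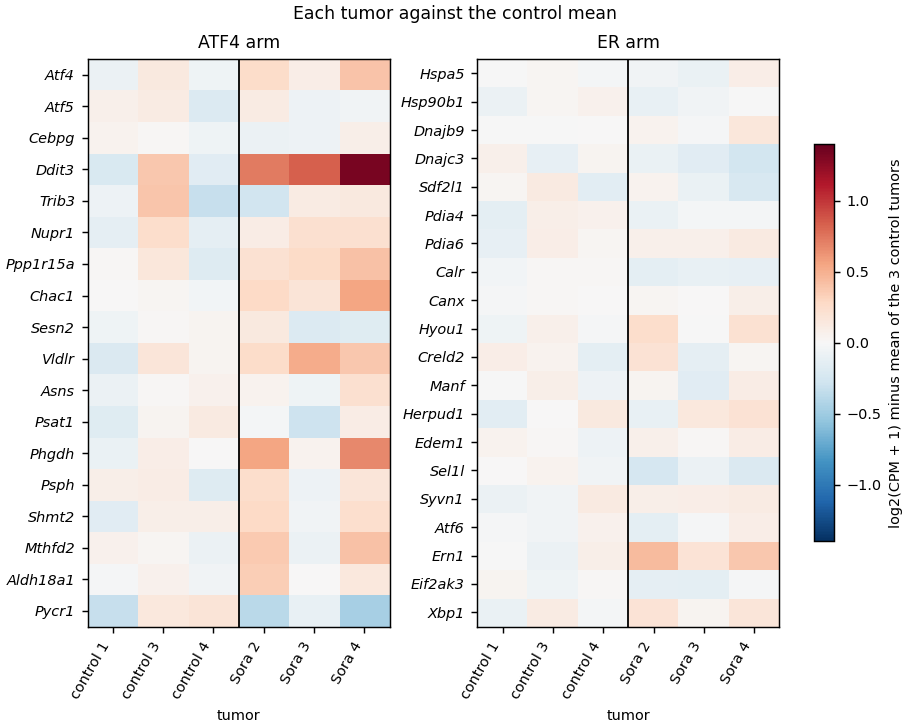
Difference of log2(CPM + 1) of each member in each tumor from the mean of the 3 control tumors, for the ATF4 arm (left) and the ER arm (right), with red for higher and blue for lower. Ddit3 is the darkest row, Phgdh and Mthfd2 are red in Sora tumors 2 and 4 and pale in Sora tumor 3, and the ER arm is pale in every tumor apart from Ern1.

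No ER chaperone was called. Hspa5 measured 893, 916, and 879 CPM in control tumors and 869, 841, and 954 CPM in Sora tumors 2, 3, and 4. The Sora tumors lay on both sides of the control tumors, with a log2 fold change of -0.01 and a 95% interval of -0.19 to 0.17 (SE 0.08, adjusted p = 0.96, edgeR). On the linear scale this interval runs from 0.876-fold to 1.12-fold. Of the 12 chaperones and folding factors, 0 were called by edgeR or DESeq2. At an unadjusted p under 0.05 in edgeR, 0 passed, beside 8.53% of all genes higher and 8.69% lower.

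Dnajc3 (P58IPK), a helper of BiP that also restrains PERK, had the smallest p of the chaperones. It measured 102, 90.1, and 99.8 CPM in control and 91.3, 87.1, and 81.1 CPM in Sora tumors. Control tumor 3 lay below Sora tumor 2, so the groups overlapped (log2 fold change -0.17, SE 0.08, 95% interval -0.35 to 0.003, adjusted p = 0.30, edgeR). Hyou1 (GRP170), the exchange factor of BiP, measured 188, 208, and 195 CPM in control and 234, 197, and 228 CPM in Sora tumors. Sora tumors 2 and 4 were above the control tumors and Sora tumor 3 was among them (log2 fold change 0.15, SE 0.08, adjusted p = 0.39, edgeR).

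Calr was the one chaperone with separated groups, at 876, 912, and 912 CPM in control and 821, 835, and 832 CPM in Sora tumors. All Sora tumors were lower, by a log2 fold change of -0.12 (95% interval -0.28 to 0.04). The other lectin chaperone, Canx, was at 0.04. The other chaperones and folding factors were Hsp90b1 (log2 fold change -0.05), the disulfide isomerases Pdia4 (-0.05) and Pdia6 (0.08), the BiP cochaperone Dnajb9 (0.07), Sdf2l1 (-0.09), Creld2 (0.03), and the secreted stress factor Manf (-0.002). The groups overlapped in all 7 of these. The 8 members with a full ERSE, all among the chaperones except Syvn1, had log2 fold changes between that of Dnajc3 and 0.10.

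Genes of ER-associated degradation gave no call. Sel1l, which holds the degradation complex of the ER membrane together, measured 93.2, 96.1, and 90.1 CPM in control and 78.9, 87.6, and 80.7 CPM in Sora tumors. All Sora tumors were below all control tumors, with a log2 fold change of -0.18 (SE 0.07, 95% interval -0.34 to -0.02, adjusted p = 0.23, edgeR). Syvn1 (HRD1), the ubiquitin ligase that works with it, was at 0.10 (95% interval -0.07 to 0.27). Herpud1, which carries the ERSE-II and a TGATGNAA core, was at 0.08 (-0.14 to 0.30), and Edem1, which marks glycoproteins for removal, was at 0.07 (-0.09 to 0.22), both with overlapping groups.

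Of the 3 sensors, Ern1 was higher in every Sora tumor and lay just outside the threshold. It measured 56.1, 53.2, and 59.7 CPM in control tumors and 76.9, 64.5, and 73.5 CPM in Sora tumors 2, 3, and 4. The highest control tumor was below the lowest Sora tumor, and the log2 fold change was 0.35 (SE 0.09, 95% interval 0.16 to 0.53, adjusted p = 0.053, edgeR). DESeq2 called Ern1 (adjusted p = 0.010). With 1 tumor left out, the adjusted p of Ern1 ran from 0.013 (without Sora tumor 3) to 0.21 (without Sora tumor 2) in edgeR.

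Neither of the other sensors was called. Eif2ak3 measured 55.2, 51.3, and 54.5 CPM in control and 49.0, 48.9, and 53.2 CPM in Sora tumors, and the groups overlapped through control tumor 3 and Sora tumor 4 (log2 fold change -0.09, SE 0.07, 95% interval -0.25 to 0.07, adjusted p = 0.58, edgeR). Atf6 measured 99.9, 97.4, and 105 CPM in control and 91.7, 99.2, and 107 CPM in Sora tumors, with the control values inside the range of the Sora values (log2 fold change -0.02, SE 0.08, 95% interval -0.19 to 0.15, adjusted p = 0.93, edgeR). Xbp1, the messenger that IRE1 splices, measured 191, 220, and 200 CPM in control and 231, 208, and 229 CPM in Sora tumors. Sora tumor 3 lay below control tumor 3, and the log2 fold change was 0.13 (SE 0.08, 95% interval -0.05 to 0.31, adjusted p = 0.46, edgeR). Counts per gene do not tell spliced from unspliced Xbp1.

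Over the 20 members of the ER arm, 10 were higher and 10 lower, with a median log2 fold change of 0.02. Groups were separated with Sora higher in 1 and with Sora lower in 2, beside 10.6% and 11.6% of all genes. edgeR called 0 of the 20, beside 1.94% of all genes higher and 1.34% lower. At an unadjusted p under 0.05 in edgeR, 1 was higher and 1 lower (8.53% and 8.69% of all genes). DESeq2, which called 4.0% of genes higher, called 1 of the 20, Ern1. For the 19 members other than Ern1, every 95% interval lay between -0.35 and 0.34 on the log2 scale, and the fewest reads of any member of the arm in a tumor were 750. The mean of log2(CPM + 1) over the arm came to 7.20, 7.25, and 7.23 for control tumors 1, 3, and 4 and to 7.24, 7.20, and 7.27 in Sora tumors 2, 3, and 4. A test of the difference between the arms was not made.

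**Figure D4:**
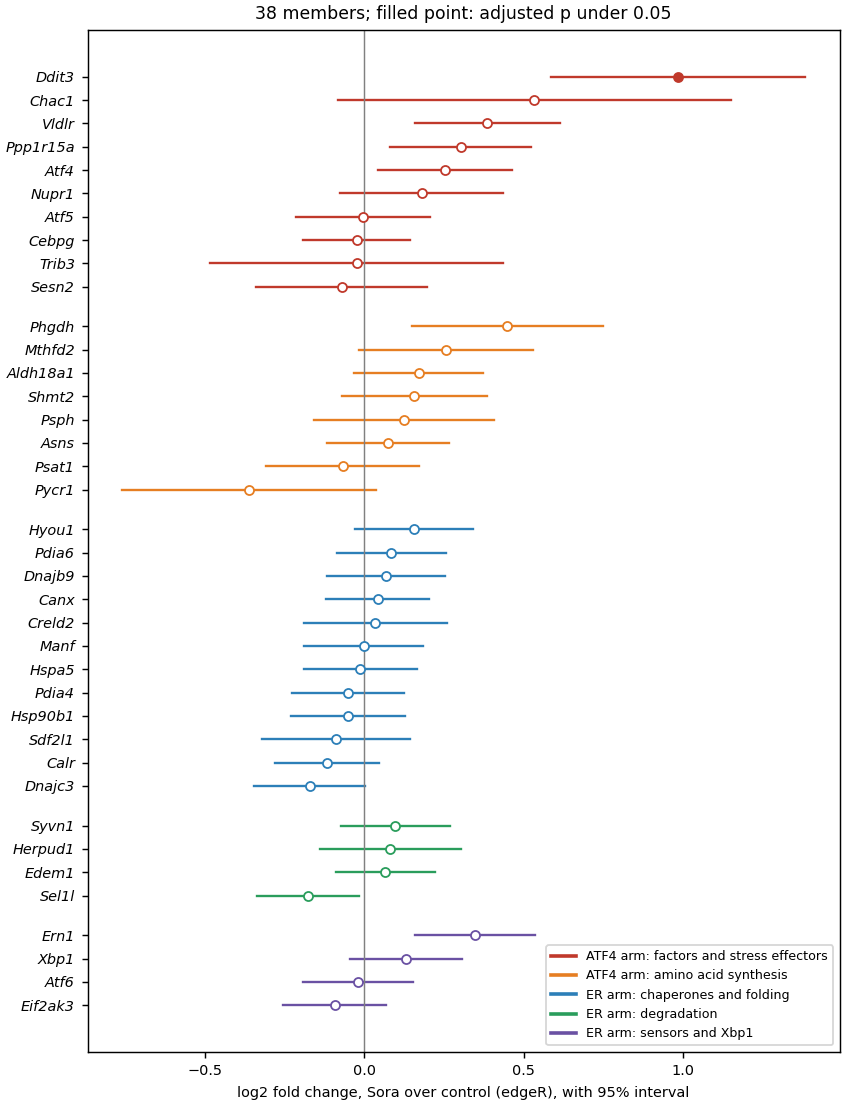
Log2 fold change of Sora over control tumors for each of the 38 members (edgeR), with 95% intervals, grouped by role. Ddit3 is the only filled point (adjusted p = 0.021), and all points of the ER arm apart from Ern1 lie between -0.18 and 0.15.

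Other genes of both pathways were read from 2 further lists. Of 41 further genes of the ATF4 pathway, 40 were tested, 5 were called higher, and 1 was called lower (1.94% and 1.34% of all genes). Cars, the cysteinyl-tRNA synthetase, measured 98.5, 115, and 103 CPM in control tumors and 191, 150, and 223 CPM in Sora tumors 2, 3, and 4. All Sora tumors were above all control tumors, with a log2 fold change of 0.83 (SE 0.13, adjusted p = 0.012, edgeR). Slc7a11, the cystine importer xCT, rose from 54.0, 57.9, and 57.5 CPM to 82.7, 68.8, and 90.4 CPM (log2 fold change 0.51, adjusted p = 0.023, edgeR). Gadd45a, a growth arrest gene (0.63, adjusted p = 0.026), Lonp1, a mitochondrial protease (0.44, 0.026), and Eif4ebp1, a brake on cap-dependent translation (0.43, 0.039), also rose in edgeR's test.

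Cbs, which starts the conversion of homocysteine to cysteine, fell. It measured 4.70, 4.64, and 5.24 CPM in control and 1.95, 2.502, and 2.66 CPM in Sora tumors, so that no Sora tumor reached the lowest control tumor (log2 fold change -1.03, SE 0.22, adjusted p = 0.031, edgeR). Among the 11 tRNA synthetases of the list, 8 were higher and 3 lower, with 1 called and a median of 0.06. The 6 genes of eIF2 kinases, phosphatase, and eIF2 subunits, which include Eif2ak4 (GCN2) and Ppp1r15b, lay between -0.10 and 0.07. None was called by edgeR, and 0 passed an unadjusted p under 0.05 (8.53% of all genes higher and 8.69% lower). Fgf21 had at most 1 read in any tumor.

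Of 69 further genes of the ER stress response, 67 were tested, and 1 was called higher and 0 lower (1.94% and 1.34% of all genes). At an unadjusted p under 0.05, 7 were higher and 1 lower in edgeR (8.53% and 8.69% of all genes). The called gene was Ero1a, the oxidase that recharges disulfide isomerases, which measured 133, 157, and 148 CPM in control and 202, 195, and 211 CPM in Sora tumors. Its groups did not overlap (log2 fold change 0.47, SE 0.08, adjusted p = 0.017, edgeR). The next smallest p belonged to Creb3l2, an ER-bound transcription factor (0.42, adjusted p = 0.056), and Txndc5, a disulfide isomerase (0.30, adjusted p = 0.061), both with every Sora tumor above every control tumor in edgeR's scaling. The median over the 67 genes was 0.05. Without Sora tumor 4, in the edgeR fit that called 5 genes in all, the 7 called genes of these 2 lists had adjusted p from 0.062 for Cars to 0.18 for Eif4ebp1, with log2 fold changes of 0.37 to 0.69 for those that had risen and -1.12 for Cbs. DESeq2 on the same deposited counts called 4 further ATF4 genes higher (Cars, Slc7a11, Lonp1, and Gadd45a), 1 lower (Cbs), and 2 further ER stress genes higher (Ero1a and Txndc5), in a fit that called 1.65% of all genes higher and 1.35% lower. Of the further ATF4 genes, 1 was called higher without control tumor 1, control tumor 4, or Sora tumor 2, and the calls of Cbs and Ero1a rested on these tumors too: edgeR called 0 genes lower in the ATF4 list and 0 higher in the ER list without any one of them, and Cbs was not called without control tumor 3 either.

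**Figure D5:**
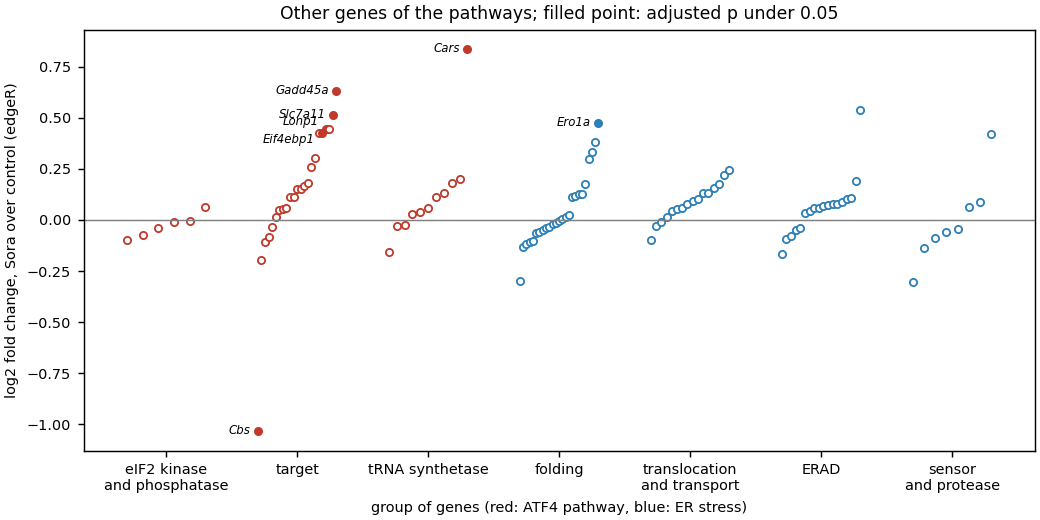
Log2 fold change of Sora over control tumors (edgeR) for the further genes of the ATF4 pathway (red) and of the ER stress response (blue), by group, with filled points for an adjusted p under 0.05. Cars lies highest at 0.83 and Cbs lowest at -1.03, and Ero1a is the only filled point among the ER stress genes.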

How the data were processed

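RNA from 3 control and 3 Sora-treated tumors was sequenced. The authors deposited counts, whole numbers of reads per gene without normalization, for 5 tumors in the table used here, and FPKM, counts divided by gene length and total, for all 6. The paper names Bowtie2 and GRCm38, whereas the submitters' processing notes list fastp, HISAT2, HTSeq, DESeq2, R 3.2.0, and GRCm39. Which of them made the files was not settled, and the annotation and use of strand are not given in the sources used here.

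For Sora tumor 4, FPKM was turned back into counts with gene lengths worked out from the 5 tumors that have both. Of its values, 100% lay within 0.001 of a whole read, and run on a tumor with deposited counts the method gave back every count it could reach (20969 to 21229 genes a tumor). In Sora tumor 4, 342 genes with 512 reads and no known length were left at 0.

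Genes that had 10 or more counts in 3 or more tumors were tested with edgeR 4.0.16 in R 4.3.3 (glmQLFit and glmQLFTest, TMM, robust=FALSE) and called at an adjusted p under 0.05. The standard error is the log2 fold change divided by the square root of F, and intervals are 95%. The scripts were tested on simulated data. Alternatives were DESeq2 1.42.0, limma 3.58.1 on log2(FPKM + 1) or log2(FPKM + 0.1) of genes with 1 FPKM or more in 3 tumors or more, or of all genes, size factors of DESeq2 or total counts in place of TMM, no filter, 10 counts or more in every tumor, a replicate block, and each tumor left out. DESeq2 without Sora tumor 4, and sums of markers without the most abundant one, were added after the data were seen.

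All members are named with their log2 fold change. Values in every tumor were set for called members, for the 4 smallest p in each arm, and for Atf4, Atf5, Ddit3, Hspa5, Xbp1, Atf6, Ern1, and Eif2ak3, and were added for Chac1, Mthfd2, Shmt2, Asns, and Calr after their values were seen. Of the other lists, called genes or the 3 smallest p are named. The members and lists were chosen with earlier results of these data known. Promoter sequences are from RefSeq on GRCm38.p6. Exons shared with another gene (13 of 38 members, over 10% of bases in Hsp90b1 and Psph) were read from GENCODE M21.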

Additional observations from a re-analysis of the deposited data

How the results depend on the processing

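The log2 fold change of Ddit3 stayed above 0 under all 16 alternatives, and its call was lost under 4 of them. Over the 38 members and 16 alternatives, 569 of 608 log2 fold changes kept their direction and their side of the threshold, 4 lost the call, 10 gained it, and 25, in 9 members, changed sign. With 1 tumor left out, 25 of the 38 members, none of them called with all 6 tumors and with log2 fold changes of up to 0.25 in size, moved by more than 1.5 times. The median log2 fold change was 0.10 to 0.23 in the ATF4 arm and -0.004 to 0.05 in the ER arm under the alternatives. Members called higher numbered 4 by DESeq2 and 4 with no filter (3 in the ATF4 arm and 1 in the ER arm each), 2 with 10 counts or more in every tumor (1 of them in the ER arm), and 0 by limma on log2(FPKM + 1) of all genes. The further ER stress genes called higher numbered 3 by DESeq2, 3 with no filter, 2 by DESeq2 without Sora tumor 4, and 0 by limma on all genes, and limma on all genes, which called 0 genes in all, called 0 of the further ATF4 genes higher and 0 lower. Leaving out each tumor in turn in edgeR gave 0 to 4 members called higher, 0 to 3 in the ATF4 arm and 0 to 1 in the ER arm, 0 to 6 further ATF4 genes called higher and 0 to 1 called lower, and 0 to 3 further ER stress genes called higher. In edgeR, no member was called without control tumor 1, control tumor 4, or Sora tumor 4, whose counts were recovered, and 4 were called without Sora tumor 3, whereas DESeq2 without Sora tumor 4 called 1, Ddit3. The cause was not tested. Genes called in all numbered 543 of 16513 by edgeR with all 6 tumors, 1194 by DESeq2, 1147 with no filter, and 568 with 10 counts or more in every tumor. With 1 tumor left out, edgeR called 174 (control tumor 1), 316 (control tumor 3), 176 (control tumor 4), 117 (Sora tumor 2), 1145 (Sora tumor 3), and 5 (Sora tumor 4). DESeq2 without Sora tumor 4 called 478. The counts of members and further genes above thus come from fits with unlike totals.

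The replicate block rests on the numbers 3 and 4, which both groups share. Deviations from the group means correlated at -0.03 between the tumors numbered 3 and at -0.07 between those numbered 4. Between tumors of unlike number they correlated at 0.20 (control tumor 3 with Sora tumor 4) and at 0.15 (control tumor 4 with Sora tumor 3). What the shared numbers stand for is not given, and so few pairs cannot settle whether the tumors were paired. With the replicate block, 125 genes were called, Ddit3 among them, with 0 of the further ATF4 genes higher, 0 lower, and 0 of the further ER stress genes higher. The sign changed under the replicate block for Cebpg (log2 fold change 0.028), Trib3 (0.10), Creld2 (-0.0079), and Atf6 (0.029).

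Other sign changes were those of Manf with 10 counts or more in every tumor (0.0011) and, by DESeq2 without Sora tumor 4, of Atf5 (0.018) and Asns (-0.012). With 1 tumor left out, log2 fold changes ran from -0.096 to 0.057 for Atf5, from -0.080 to 0.0077 for Cebpg, from -0.19 to 0.22 for Trib3, from -0.0090 to 0.14 for Asns, from -0.16 to 0.030 for Psat1, from -0.066 to 0.023 for Hspa5, from -0.054 to 0.11 for Creld2, from -0.058 to 0.069 for Manf, and from -0.076 to 0.036 for Atf6.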
